A study of Mus musculus with 16 samples.

Results

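Microglia sorted from whole brains of wild-type mice were compared between 12 and 6 weeks of age, a comparison of normal maturation in the young adult. The members are the 8 libraries whose titles give the genotype wt, of 16 libraries in the series, and they were taken by genotype and age alone: 4 libraries labelled 6 week old (replicates 1 to 4, of which 1 and 4 are male and 2 and 3 female) and 4 labelled 12 week old (replicates 3, 4, 5_6 and 8, of which 3 is female and the others are labelled male). All mice carried a mixed C57Bl6J/FVB background. The other 8 libraries came from mice labelled as knockouts (KO) of the DNA repair gene Ercc1, with 4 libraries at each of the same ages. They serve here as a second age comparison, which shares no library with the first, and enter the model that estimates spread and the effect of sex. Cells were isolated mechanically in the cold and sorted as DAPI negative, CD11b high, CD45 intermediate and Ly6c negative. The labels do not state whether each library holds 1 animal or several, nor what the title number 5_6 joins, so p-values measure the spread between these libraries only.

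Microglia, the macrophages that reside in brain tissue, survive on signals through the receptor Csf1r, sense neurons through Cx3cr1 and purine receptors, take up dying cells and synaptic material through receptors such as the kinases Axl and Mertk, and break that material down in lysosomes. TGF-beta signalling and transcription factors such as Sall1, Spi1 and Mef2c maintain their adult identity. In mice, microglia proliferate after birth, take on the adult program over the first postnatal weeks and afterwards renew slowly.

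Levels are given in CPM, counts scaled to a common library total after TMM normalisation, and the count model was edgeR's quasi-likelihood test with p-values adjusted by Benjamini-Hochberg over 17090 genes (threshold 0.05). Total counts ran from 8250645 to 13278797 in the 6-week WT libraries and from 9045823 to 22142972 at 12 weeks, where replicate 5_6 was the deepest. The labelled cell type was checked against 9 microglia markers. All 9 were measured, with summed levels of 65280 to 72300 CPM at 6 weeks and 60350 to 68060 CPM at 12 weeks. The 12-week WT libraries differed more among themselves. Pearson's r between libraries of a group was 0.922 to 0.938 at 6 weeks and 0.850 to 0.897 at 12 weeks, and 2.74% to 5.59% of tested genes had no count in a 6-week library against 5.76% to 12.3% in a 12-week library, with the highest shares in 12-week replicates 3 and 8. Replicate 5_6, labelled male, held Xist at 349.6 CPM together with a summed level of 112.6 CPM for Y-linked genes, whereas the other male WT libraries held Xist at 0 to 11.4 CPM.

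At the threshold, 2 genes differed between 12 and 6 weeks in WT, both lower at 12 weeks: Axl, a receptor tyrosine kinase for the bridging ligand Gas6 that serves in the uptake of apoptotic cells, and Slc7a8, the neutral amino acid transporter LAT2. No gene was called higher. In bulk RNA, fewer cells of a type and less RNA per cell cannot be told apart. These 2 calls are 0.0117% of the genes tested. At an unadjusted p under 0.05 there were 1271 genes (7.44%), of which 528 were higher at 12 weeks (3.09%) and 743 lower (4.35%), the shares against which the counts of each list are read. In 907 genes (5.31%) the libraries of the 2 ages did not overlap, with 395 higher and 512 lower.

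Axl was read at 12.1, 5.82, 5.38 and 14.8 CPM in 6-week replicates 1 to 4, from 112, 51, 68 and 122 counts. It had no count in any of the 4 libraries of 12 weeks. Both male 6-week libraries lay above both female ones, and every 6-week library lay above every 12-week library. A count of 0 over the 12-week group allows a level of up to 0.0576 CPM (a floor of 3 counts over the group), so that Axl fell to a level at least 165-fold lower than its 6-week mean of 9.52 CPM ± 4.67 (SD, n = 4). Its adjusted p was 0.000565 in edgeR's quasi-likelihood test. Without the deep library 5_6 the bound was 92.8-fold. More genes were without counts at 12 weeks: 170 tested genes were at 0 throughout the 12-week WT group and 48 throughout the 6-week WT group. Among the 170, Axl alone had a mean of at least 5 CPM in the other age group, and 70 had at least 1 CPM.

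In KO microglia Axl was higher than in WT at both ages, at 51.4, 89.2, 48.8 and 93.5 CPM at 6 weeks and 167, 227, 175 and 108 CPM at 12 weeks. The 12-week KO libraries all lay above the 6-week ones, with a log2 change of 1.16 (adjusted p = 0.293, edgeR). In the model of all 16 libraries with a sex term, Axl was the only gene whose age effects in KO and WT differed past the threshold (0.00585% of genes tested), with an adjusted p of 0.000567 in edgeR. That difference had an adjusted p of 0.0803 in the male libraries without 5_6 and of 0.691 in limma voom with quality weights.

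Slc7a8 was measured at 476.5, 495, 407 and 526.5 CPM at 6 weeks and at 189, 231, 235 and 267 CPM at 12 weeks. The 2 ages did not overlap, and the highest 12-week library stood well below the lowest 6-week library. The mean fell from 476 CPM ± 50.5 to 231 CPM ± 32.3 (SD, n = 4 each), a log2 change of -1.04 ± 0.13 (approximate SE, adjusted p = 0.00587, edgeR). In KO, Slc7a8 had a log2 change of -0.77 (adjusted p = 0.0536), with libraries of the 2 ages that did not overlap either, and the difference between the genotypes' age effects was 0.27 on the log2 scale (adjusted p = 1).

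Neither call held in every fit. Limma voom with quality weights kept Slc7a8 but not Axl (adjusted p = 0.375), and with the replicate number as a block both had an adjusted p of 0.107. With the 8 WT libraries alone no gene passed (adjusted p = 0.311 for Axl and 0.0649 for Slc7a8), the same held for the male libraries without 5_6, and without 6-week replicate 4 Slc7a8 had an adjusted p of 0.0556, whereas DESeq2 called 150 genes (52 higher, 98 lower).

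**Figure D1:**
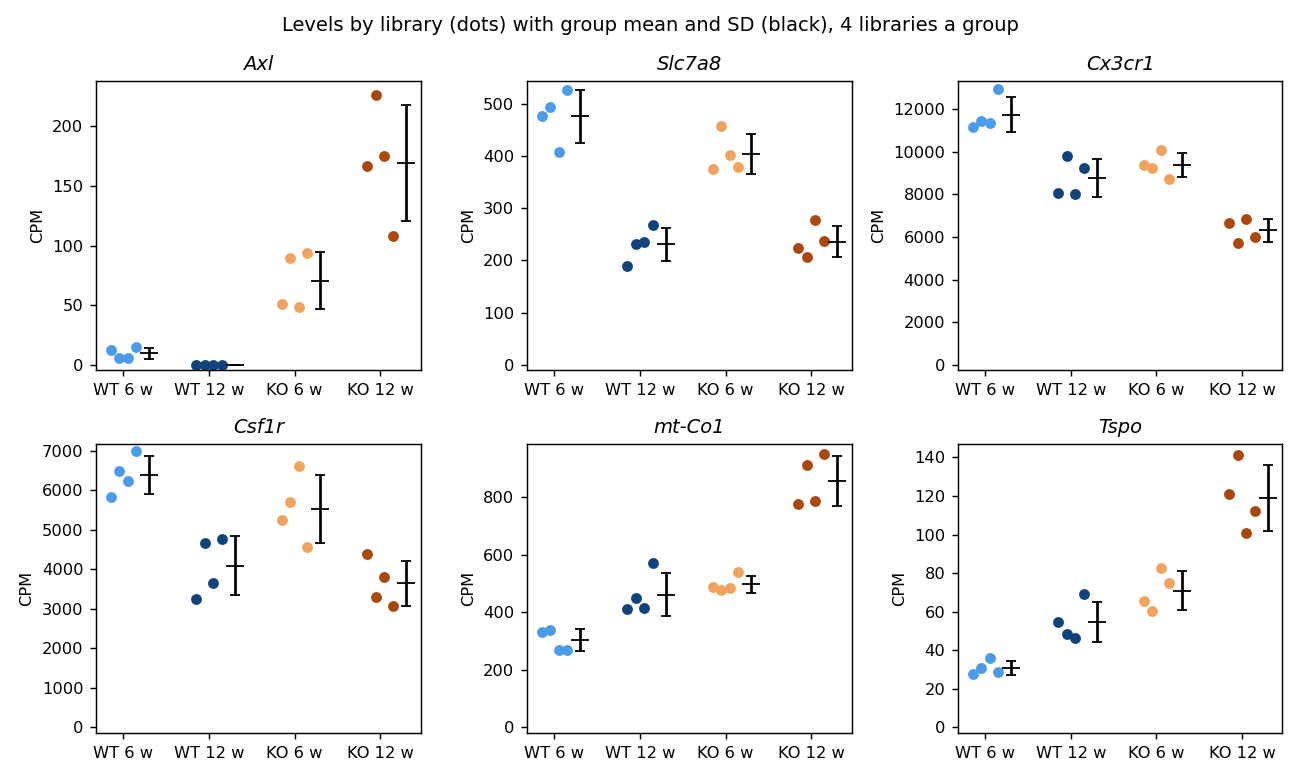
Levels (CPM, vertical axis from 0) of Axl, Slc7a8, Cx3cr1, Csf1r, mt-Co1 and Tspo in the 4 libraries of each group (dots), with the group mean and SD in black. Axl is at 0 in the 4 WT libraries of 12 weeks and at 108 CPM or more in the KO libraries of that age, while the WT levels of the other 5 genes do not overlap between 6 and 12 weeks.

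The sequences upstream of the 2 called genes are shown because these are the only changes past the threshold in WT. They hold the 250 bases before the annotated start of transcription (RefSeq, build GRCm38.p6, which is not the build of the counts), written 5′ to 3′ along the gene's strand, at chr7:25788734-25788983 (minus strand) for Axl and chr14:54781887-54782136 (minus strand) for Slc7a8. Capitals mark matches, on either strand, to the GC box GGGCGG and to GAGGAA, a core bound by PU.1, the product of Spi1, which reads TTCCTC on the other strand.
Axl: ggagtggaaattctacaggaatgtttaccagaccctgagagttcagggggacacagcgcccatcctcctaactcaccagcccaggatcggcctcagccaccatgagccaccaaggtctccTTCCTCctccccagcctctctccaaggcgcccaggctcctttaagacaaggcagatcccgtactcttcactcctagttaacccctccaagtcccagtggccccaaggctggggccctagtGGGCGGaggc
Slc7a8: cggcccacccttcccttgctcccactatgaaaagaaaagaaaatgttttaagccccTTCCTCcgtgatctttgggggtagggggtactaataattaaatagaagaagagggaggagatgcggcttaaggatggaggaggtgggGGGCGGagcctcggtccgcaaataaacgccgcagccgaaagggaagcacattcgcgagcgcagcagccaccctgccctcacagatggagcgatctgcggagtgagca
Each promoter held 1 match to the GC box, 10 bases before the start in Axl and 107 bases before it in Slc7a8, and 1 match to the PU.1 core, at 130 and 194 bases. Neither held the AP-1 motif TGANTCA or the E-box CACGTG. Of 27025 promoters of the same length, 32.9% held the GC box, 23.1% the PU.1 core, 6.87% the AP-1 motif and 6.05% the E-box.

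Beyond the 2 calls, 9 genes with lower and 10 with higher levels at 12 weeks are described as values that missed the threshold. They were taken by the smallest unadjusted p among genes of at least 5 CPM whose WT libraries did not overlap between ages. Their adjusted p in edgeR lay between 0.154 and 0.263. All 20 genes, with Slc7a8, were among the 150 that DESeq2 called. Without a filter on low counts, 13 of the 20 were among the 194 that edgeR called. Both fits used the counts from which the genes were chosen, so these calls are no separate support.

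Among the lower genes, the chemokine receptor Cx3cr1, which binds fractalkine from neurons, was at 11180, 11460, 11360 and 12960 CPM at 6 weeks and at 8041, 9823, 8032 and 9216 CPM at 12 weeks. Replicate 4 was the highest at 6 weeks, and the ages did not overlap, with a log2 change of -0.42 ± 0.08. Cd274, the checkpoint ligand PD-L1, was at 13.4, 9.25, 5.77 and 14.6 CPM against 1.30, 1.99, 4.17 and 1.48 CPM. Its log2 change was -2.39 ± 0.43 on low counts, and 12-week replicate 5_6 lay closest to the 6-week range. Gria4, an AMPA-type glutamate receptor subunit, was at 13.1 to 17.8 CPM at 6 weeks and at 1.19 to 5.35 CPM at 12 weeks (log2 change -2.45 ± 0.50).

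Other lower genes had smaller changes at higher levels. Hexa, the alpha subunit of the lysosomal hexosaminidase, was at 719, 766, 777 and 847 CPM against 599.9, 628, 509.5 and 599 CPM (log2 change -0.42 ± 0.09). Tcn2, the plasma carrier of vitamin B12, was at 745 to 807 CPM against 588 to 641 CPM (-0.35 ± 0.07). Acss1, the mitochondrial acetyl-CoA synthetase, had a log2 change of -0.84 ± 0.15, and Anp32e, a chaperone that removes the histone variant H2A.Z, one of -0.93 ± 0.17. Without 12-week replicate 8, Anp32e passed the threshold (adjusted p = 0.0371, edgeR). Os9, a lectin of endoplasmic reticulum quality control, and Epb41l2, a protein of the membrane skeleton, had log2 changes of -0.63 ± 0.11 and -0.51 ± 0.09.

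Among the higher genes, Cox6b1, a subunit of cytochrome c oxidase, was at 73.8, 62.6, 63.4 and 63.6 CPM at 6 weeks and at 119, 87.2, 121 and 124 CPM at 12 weeks. Replicate 4 was the lowest of the 12-week libraries and still above all of 6 weeks (log2 change 0.77 ± 0.15). Tspo, the outer mitochondrial membrane protein used as a target of imaging tracers for microglia, was at 27.5, 31.1, 36.1 and 29.0 CPM against 54.7, 48.4, 46.2 and 69.3 CPM (0.82 ± 0.18). The mitochondrially encoded mt-Co1 was at 333, 340, 269.8 and 270.4 CPM against 410, 448, 416 and 570.2 CPM (0.57 ± 0.12), and the mitochondrial ribosomal RNA mt-Rnr2 had a log2 change of 0.71 ± 0.16.

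Tmsb4x, the actin-binding peptide thymosin beta 4, was at 3300, 2948, 2902 and 2645 CPM against 4346, 3646, 3570 and 4365 CPM (log2 change 0.42 ± 0.09). Ppcdc, an enzyme of coenzyme A synthesis, had a log2 change of 0.42 ± 0.09, from 473 to 572 CPM to 673 to 726.5 CPM. Hint1, a nucleotide hydrolase, had one of 0.73 ± 0.17, Ssna1, a microtubule-associated protein, one of 0.67 ± 0.16, and Upk1b, a tetraspanin, one of 0.83 ± 0.18. The largest value belonged to Mcm9, a helicase of DNA repair, at 4.35 to 8.95 CPM against 11.9 to 48.9 CPM (1.96 ± 0.42). Its 12-week libraries spread widely, with replicate 3 the highest and 5_6 the lowest, and the log2 change was 1.14 without replicates 3 and 8 and 2.21 without 5_6.

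**Figure D2:**
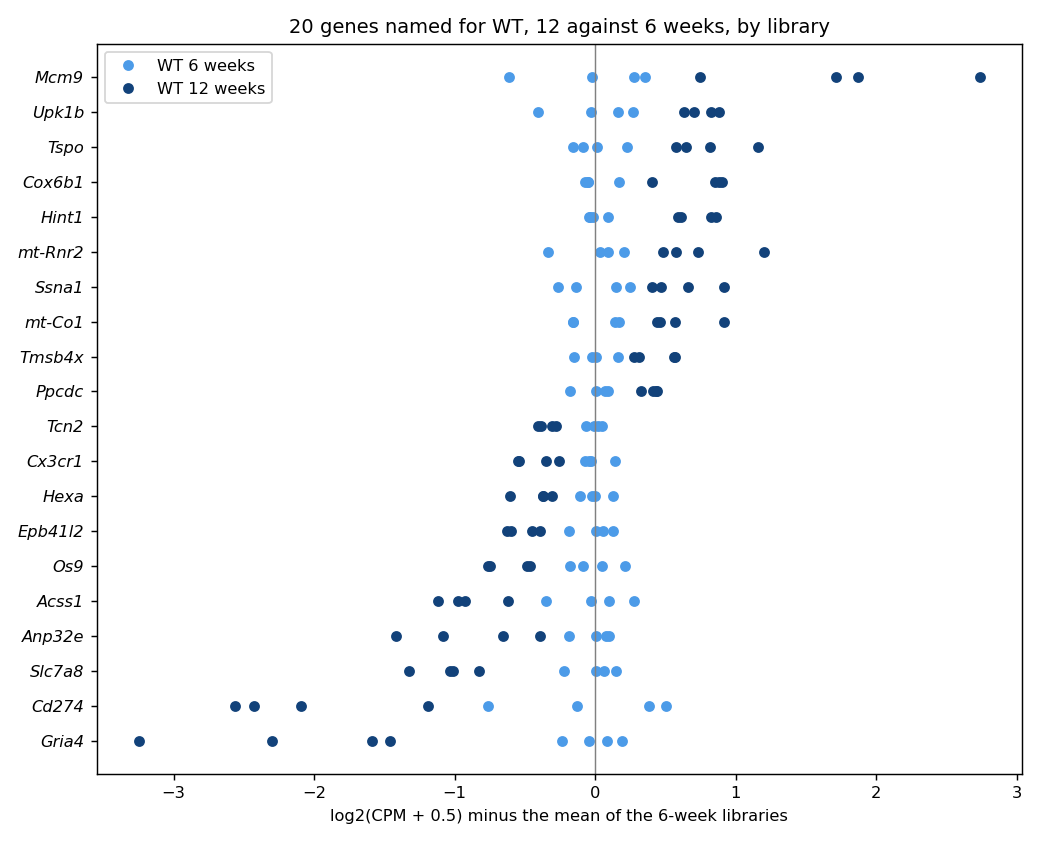
Log2(CPM + 0.5) of the 20 named genes in each WT library, minus the mean of the 6-week libraries (horizontal axis), with 6-week libraries in light blue and 12-week libraries in dark blue. The ages do not overlap in any gene, because the genes were chosen so; Mcm9, Cd274 and Gria4, which have the lowest levels, show the widest spread at 12 weeks.

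The defining program of adult microglia was present at both ages and its list of 30 homeostatic genes had a median log2 change of -0.07, against -0.02 over all genes tested. At an unadjusted p under 0.05, 4 members were higher and 5 lower. Of its most abundant members, Cst3, a secreted cysteine protease inhibitor, averaged 25370 CPM at 6 weeks and 28530 CPM at 12 weeks (log2 change 0.17) and the purine receptor P2ry12 16470 and 16860 CPM (0.05).

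The lower members of that list, named after their values were seen, were mostly receptors and surface proteins. Csf1r, the receptor for the survival factors CSF1 and IL-34, was at 5837, 6475, 6232 and 6981 CPM at 6 weeks and at 3259, 4677, 3664 and 4755 CPM at 12 weeks. The ages did not overlap, and replicates 3 and 5_6 were the lowest at 12 weeks (log2 change -0.63 ± 0.14, adjusted p = 0.246, edgeR). Without replicate 3 the log2 change was -0.49, and without 5_6 it was -0.60. Tmem119, a membrane protein restricted to microglia in the brain, had a log2 change of -0.33 ± 0.11, from 6040 to 6845 CPM to 4163 to 5985 CPM, and Fcrls, an Fc receptor-like protein, one of -0.33 ± 0.10. The higher members were Gpr34, a receptor for lysophosphatidylserine (3120 to 3583 CPM against 3663 to 4616 CPM, log2 change 0.30 ± 0.10), Rgs10, a regulator of G protein signalling (0.22 ± 0.08), Cst3 and Ltc4s. Csf1, a ligand of Csf1r, was at 10.6 to 22.7 CPM at 6 weeks and at 0, 5.79, 0.570 and 5.8 CPM at 12 weeks, with a log2 change of -2.54 ± 0.73 (adjusted p = 0.358). So the transcripts of the receptor and of 1 of its ligands both had lower means at 12 weeks, neither past the threshold. Csf1 rests on few counts, 129 over the 12-week WT group. In KO the log2 changes were -0.60 for Csf1r and -0.23 for Csf1, neither past the threshold.

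Of 22 measured transcription factors of microglia, 1 was higher and 6 were lower at an unadjusted p under 0.05, against 3.09% and 4.35% of all genes tested, and the list's median was -0.07. The most abundant were Mef2c (978.5 and 824 CPM, log2 change -0.24), Irf8 (621 and 545 CPM, -0.19) and Mef2a (537 and 544 CPM, 0.03), none with an unadjusted p under 0.05, and Mef2a took the other sign without 6-week replicate 4 or 12-week replicates 3 or 4. Jun, an AP-1 subunit and immediate early gene, was at 223, 162.5, 129 and 180 CPM against 108, 122, 61.6 and 79.7 CPM, without overlap (log2 change -0.90 ± 0.24). Spi1 had a log2 change of -0.46 ± 0.17 and Runx1 one of -0.41 ± 0.17, with overlapping libraries, while Cebpa had one of 0.55 ± 0.22. Sall1, which maintains microglial identity, averaged 483 CPM ± 54.1 and 516 CPM ± 84.4 (SD, n = 4 each).

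Genes of the lysosome and phagocytosis leaned lower. Of 40 measured members, 10 were lower and 1 higher at an unadjusted p under 0.05, against 4.35% and 3.09% of all genes tested, and the median was -0.07. The 10 include Axl and Hexa, and further Psap, the precursor of the saposins that assist lipid hydrolases (4346 to 4819 CPM against 3598 to 4133 CPM, log2 change -0.24 ± 0.07), Grn, encoding progranulin (1182 to 1308 CPM against 882 to 1152 CPM, -0.33 ± 0.10), and Laptm5, a lysosomal membrane protein (-0.26 ± 0.09). In these 3 genes the ages did not overlap. Tpp1, a lysosomal peptidase, had a log2 change of -0.32 ± 0.09, and the protease Ctsd one of -0.23 ± 0.10. Lamp1, a structural glycoprotein of the lysosomal membrane, was the higher member, at 92.2 to 123 CPM against 104 to 180 CPM (0.49 ± 0.16). Among the most abundant members were the protease Lgmn (13020 and 11970 CPM, -0.10) and the protease Ctss (9465 and 9917 CPM, 0.07). The list's summed level overlapped between ages, at 76490 to 87790 CPM and 73400 to 80730 CPM.

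In the MHC class I list, 3 of 20 measured members were lower at an unadjusted p under 0.05 and none higher, and all 3 serve peptide loading rather than presentation itself. Tap2, a subunit of the peptide transporter, was at 127.5, 151, 134 and 140 CPM against 48.8, 112, 51.7 and 88.4 CPM (log2 change -0.87 ± 0.24), and tapasin, Tapbp, was at 476 to 521.5 CPM against 268 to 445.5 CPM (-0.54 ± 0.15). Neither overlapped between ages. Tap1, the other transporter subunit, had a log2 change of -0.88 ± 0.29, and 12-week replicate 8 lay within the 6-week range. B2m, the light chain, averaged 1415 and 1533 CPM (0.10), and its ages did not overlap either, with 12 weeks higher (1392 to 1432 CPM against 1446 to 1653 CPM). H2-D1 averaged 464 and 401 CPM (-0.21) and H2-K1 176 and 191 CPM (0.15), while the chaperones Pdia3 and Canx, the most abundant members, had values of -0.13 and -0.06. In the MHC class II list 1 of 11 members, H2-DMb1, had an unadjusted p under 0.05 (64.1 to 90.9 CPM against 97.0 to 114 CPM, log2 change 0.45 ± 0.13), and the invariant chain Cd74 had a value of -0.36 and H2-DMa one of -0.03.

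Of 26 genes of the disease-associated microglia program, 4 were higher and 4 lower at an unadjusted p under 0.05, with a median of 0.00 that took either sign among the alternative fits. Axl was the member past the threshold. Apoe, the lipid carrier, was at 1050, 719, 898 and 1289 CPM at 6 weeks and at 853, 655, 611.5 and 799.5 CPM at 12 weeks, with overlapping ages (log2 change -0.45 ± 0.17). Cd9, a tetraspanin, averaged 957 and 1235 CPM, without overlap (0.35 ± 0.09), the chemokine Ccl6 had a value of 0.32 ± 0.12 and the adaptor Tyrobp one of 0.22 ± 0.10. Its partner receptor Trem2 averaged 1662 CPM ± 20.4 and 1822 CPM ± 126 (SD, n = 4 each, log2 change 0.13). Of the most abundant members, Ctsd and Ctsb had values of -0.23 and -0.14, and Ctsz one of 0.00.

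Interferon-stimulated genes had values in both directions: of 49 measured members 3 were higher and 5 lower at an unadjusted p under 0.05, with a median of -0.00 that was negative in 10 and positive in 9 of 20 fits. Isg15, a ubiquitin-like modifier, was at 3.56, 1.14, 2.85 and 3.76 CPM against 7.57, 3.04, 7.19 and 8.23 CPM (log2 change 1.18 ± 0.48), and Usp18, its protease, had a value of 1.04 ± 0.45, which was -0.19 in the male libraries without 5_6. Irf7, the interferon regulatory factor of the series title, was at 6.14, 9.82, 3.40 and 9.10 CPM against 3.24, 0.475, 1.45 and 4.54 CPM (-1.60 ± 0.58, adjusted p = 0.522, edgeR). Stat2, a subunit of the interferon transcription complex, had a value of -0.70 ± 0.33, while its partner Irf9 averaged 82.9 and 88.5 CPM (0.16). The most abundant members besides Irf9, Lgals3bp and Igtp, had values of -0.22 and 0.06.

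**Figure D3:**
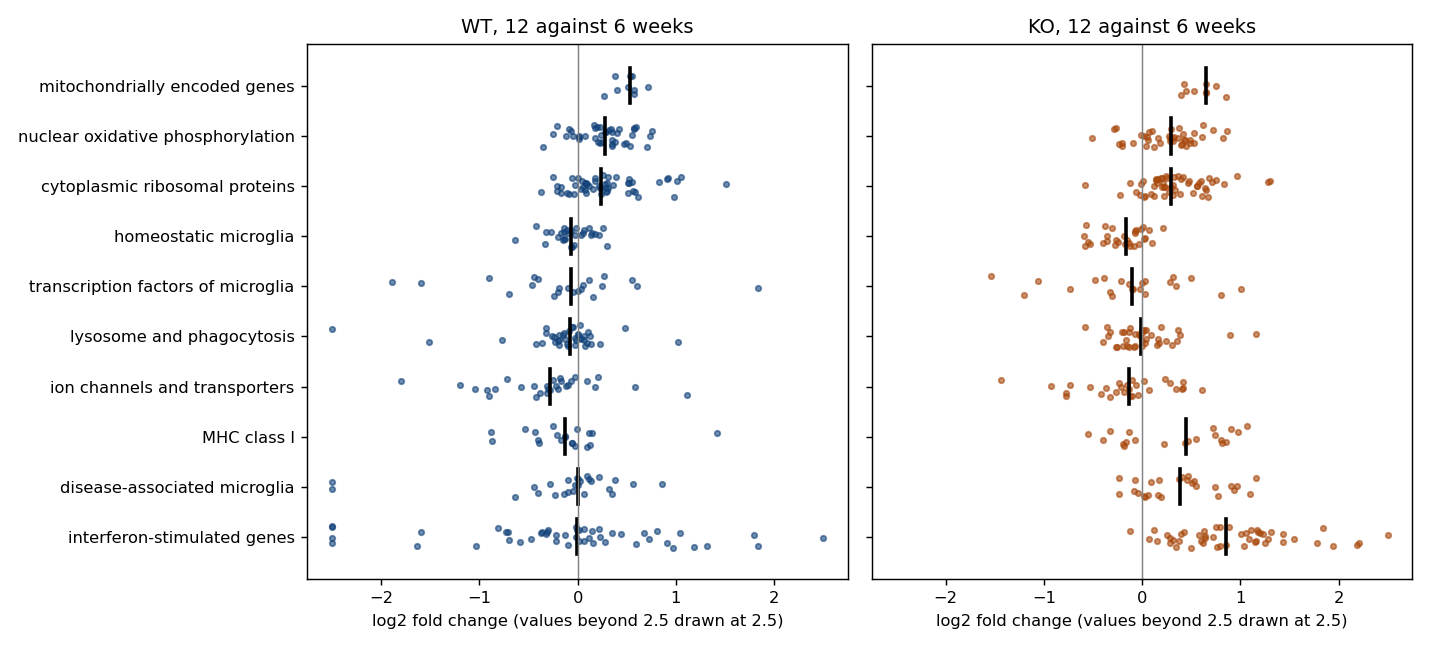
Log2 fold change of 12 against 6 weeks for each measured member (dots) of 10 gene lists in WT (left) and KO (right), with the median as a black bar; values beyond 2.5 are drawn at 2.5. In WT the mitochondrially encoded, oxidative phosphorylation and ribosomal lists have medians of 0.53, 0.28 and 0.24, and the other 7 lists have medians between -0.28 and 0.00.

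Transcripts of the respiratory chain and of ribosomes had the highest medians of the 29 gene lists. The mitochondrial genome encodes core subunits of the respiratory complexes, and nuclear genes supply the rest. All 9 measured mitochondrially encoded genes had positive log2 changes, against 8306 of all 17090 genes tested. Of the 9, 8 had an unadjusted p under 0.05, and the median was 0.53 with a range of 0.27 to 0.71. The most abundant was mt-Cytb, of complex III, at 1063, 1161, 1123 and 768 CPM against 1129, 1482, 1531 and 1441 CPM, where 12-week replicate 3 lay within the 6-week range (0.41 ± 0.15). Next to mt-Co1, mt-Nd1, of complex I, was at 225 to 338 CPM against 395 to 491 CPM without overlap (0.52 ± 0.14). The share of all counts in mitochondrially encoded genes was 0.182% to 0.253% at 6 weeks and 0.276% to 0.385% at 12 weeks.

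Of 41 nuclear genes of oxidative phosphorylation, 34 had positive log2 changes, again against 8306 of all 17090 genes tested. At an unadjusted p under 0.05, 12 were higher and 1 lower, and the list's median was 0.28. The higher members included Ndufb3 of complex I (0.76 ± 0.23), Atp5e of the ATP synthase (0.74 ± 0.25), Ndufa4 (0.57 ± 0.20) and Cox4i1 of complex IV (0.29 ± 0.11). The most abundant members did not share that direction: Sdha, the catalytic subunit of succinate dehydrogenase, was the lower one (324 to 413 CPM against 224 to 306 CPM, log2 change -0.35 ± 0.12, without overlap), Uqcrc1 had a value of 0.01 that took the other sign in 7 alternative fits, and Atp5b had one of -0.21. Of 53 cytoplasmic ribosomal proteins, 42 had positive log2 changes and 8 were higher at an unadjusted p under 0.05, with none lower and a median of 0.24. Rpl32 was at 58.1 to 83.5 CPM against 90.9 to 125 CPM (0.55 ± 0.16), Rpl41 at 38.1 to 40.4 CPM against 46.3 to 69.1 CPM (0.58 ± 0.19), and Rps3 at 181 to 230 CPM against 234 to 286 CPM (0.31 ± 0.11). Rpl4, the most abundant, had a value of -0.04, and Rps9 one of 0.16. The medians of these 3 lists were positive in all 20 fits, from 0.35 to 0.68, from 0.20 to 0.33 and from 0.09 to 0.30.

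Transcript length moved with age in the same direction as these lists. Among genes of at least 5 CPM in WT, the median log2 change was 0.19 for 928 genes whose longest transcript has up to 1000 bases, 0.07 for 1786 genes of over 1000 and up to 2000 bases, and -0.04 for both the 4318 genes of over 2000 and up to 4000 bases and the 4092 longer ones (lengths from GENCODE M21). Genes of up to 1000 bases held 7.21% to 7.79% of counts at 6 weeks and 7.86% to 8.86% at 12 weeks, without overlap, and KO libraries showed the same order (7.25% to 7.90% and 8.38% to 9.17%). Within the shortest class, the 14 oxidative phosphorylation genes had a median of 0.35 and the 14 ribosomal genes one of 0.30, against 0.19 for the other genes of that length. Positive log2 changes were found in all 14 of the former and 12 of the latter, against 72.3% of all 928 genes of that class. In the class of over 1000 and up to 2000 bases they were found in 12 of 16 and 17 of 20, against 58.9%. The 6 mitochondrially encoded genes of over 1000 and up to 2000 bases had a median of 0.47 against 0.07 for the other genes of that length. The part of transcript length in these lists, and of any property of the RNA that goes with it, was not tested beyond these values.

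**Figure D4:**
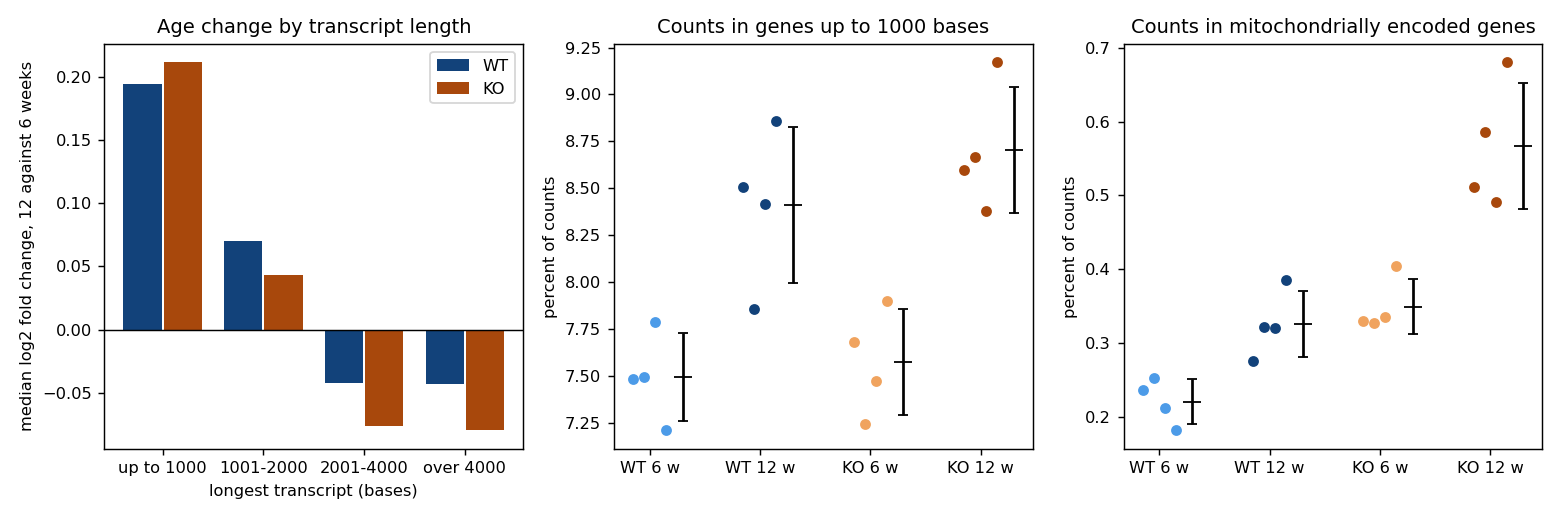
Left, median log2 change of 12 against 6 weeks by length of the longest transcript in WT and KO (bars from 0), positive for the shorter 2 classes and negative for the longer 2. Middle and right, percent of counts in genes of up to 1000 bases and in mitochondrially encoded genes in each library (dots, axes not from 0), with group mean and SD in black; in both genotypes the 12-week libraries lie above the 6-week ones.

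Channels and transporters had a median of -0.28, with 24 of 29 measured members negative, against 8784 of all 17090 genes tested. At an unadjusted p under 0.05, 4 were lower and 2 higher. Besides Slc7a8, the most abundant member Slco2b1, an organic anion transporter enriched in microglia, was at 2311, 2284, 2360 and 3149 CPM against 1050, 1730, 1149 and 1798 CPM. The ages did not overlap, and 12-week replicates 3 and 5_6 were the lowest (log2 change -0.84 ± 0.20, adjusted p = 0.263, edgeR). Without replicate 3 it was -0.67, and without 5_6 -0.75. Stim1, the calcium sensor of the endoplasmic reticulum, was at 24.1 to 40.4 CPM against 9.95 to 23.7 CPM (-0.93 ± 0.28), and Trpm2, a calcium channel gated by oxidative stress, had a value of 1.12 ± 0.44. The fructose transporter Slc2a5 and the nucleoside transporter Slc29a3 had values of -0.20 and -0.17. The summed level of the list was 7162 to 8345 CPM at 6 weeks and 4878 to 6487 CPM at 12 weeks, without overlap. Most of that fall lay in Slco2b1 (means of 2526 and 1432 CPM) and Slc7a8 (476 and 231 CPM). The list's median was negative in all 20 fits.

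Glycolysis and hypoxia genes had a median of -0.20, with 2 of 25 lower and none higher at an unadjusted p under 0.05: Pkm, pyruvate kinase, at 138 to 179.5 CPM against 101 to 119 CPM (-0.50 ± 0.12), and Hk1, the first enzyme of glucose breakdown, at 21.0 to 32.4 CPM against 5.07 to 15.4 CPM (-1.60 ± 0.44). Neither overlapped between ages. The most abundant members, Aldoa, P4ha1 and Hk2, had values of -0.20, -0.11 and -0.06. Immediate early genes, which respond to cell handling as well as to stimulation in the animal, had a median of -0.21, with 3 of 24 lower (Jun, Ier2 and Atf3) and 1 higher (Rhob, 0.56 ± 0.20). Sgk1 and Btg2, the most abundant of them, had values of -0.15 and -0.16.

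TGF-beta and SMAD genes had a median of -0.14, which was positive in 3 of 20 fits, and 2 of 28 were lower at an unadjusted p under 0.05. Nrros, which tethers latent TGF-beta on microglia, was at 740 to 814 CPM against 542 to 710 CPM without overlap (-0.36 ± 0.10), and the receptors Tgfbr1 and Tgfbr2 had values of -0.15 and -0.21. Smad3 averaged 79.2 CPM ± 15.1 and 95.3 CPM ± 20.5 (SD, n = 4 each, log2 change 0.25).

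Proliferation genes were low at both ages, with a summed level over 35 genes of 294 to 361 CPM at 6 weeks and 307 to 406 CPM at 12 weeks, and 3 were higher and 1 lower at an unadjusted p under 0.05. Nusap1, a spindle protein, was at 1.73, 0.343, 0.870 and 0.728 CPM against 9.41, 1.90, 11.6 and 2.64 CPM, and Ccnb2, a mitotic cyclin, was at 0 to 2.31 CPM against 4.12 to 8.29 CPM. Both rest on few counts and did not overlap between ages. Nusap1 was highest in replicates 3 and 5_6, and its log2 change of 2.78 was 2.22 without the former and 2.34 without the latter. The most abundant members, Mcm3, Rrm1 and Tyms, averaged 39.9, 38 and 31.3 CPM at 6 weeks and 36.5, 36.8 and 32.0 CPM at 12 weeks.

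Complement, clock and glucocorticoid response genes had no member at an unadjusted p under 0.05, among 19, 21 and 21 measured, and medians of -0.07, 0.01 and -0.04. The complement components C1qb, C1qc and C1qa averaged 5598, 4131 and 2792 CPM at 6 weeks and 5327, 3730 and 2547 CPM at 12 weeks, with overlapping libraries. In the DNA repair list, 2 of 40 genes were higher, among them Cetn2, centrin 2 of the lesion recognition complex (27.8 to 31.7 CPM against 35.7 to 48.5 CPM, 0.61 ± 0.16). Ercc1 itself averaged 18.8 CPM ± 7.91 at 6 weeks and 20.7 CPM ± 19.2 at 12 weeks (SD, n = 4 each), with a value of 0.02 that took the other sign in 8 alternative fits. The KO libraries held Ercc1 at 2.83 to 4.54 CPM at 6 weeks and at 0.425 to 6.77 CPM at 12 weeks, each below every WT library. Among the remaining receptors, Fcgrt, the neonatal Fc receptor, was at 206 to 272 CPM against 148 to 161 CPM (-0.51 ± 0.13), the orphan receptor Gpr165 at 251 to 416 CPM against 138 to 217 CPM (-0.88 ± 0.31), and Fcgr3 at 1937 to 2202 CPM against 2165 to 2474 CPM (0.21 ± 0.09). Vldlr, a lipoprotein receptor, was at 1.94 to 4.10 CPM against 7.68 to 23.3 CPM (2.06 ± 0.50). The Fc and pattern recognition list had 3 of 33 higher and 4 lower, and the list of G protein-coupled receptors 2 of 35 higher and 5 lower. Inflammatory and NF-kB target genes had 2 of 30 lower and none higher, early postnatal genes 3 of 31 higher and 4 lower, and p53 targets 1 of 36 higher and 2 lower.

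Markers of other cells that a sort can carry were counted beside these lists. Of 16 measured genes of oligodendrocytes and their precursors, 3 were lower at an unadjusted p under 0.05 and none higher, and their summed level was 3096 to 3679 CPM at 6 weeks and 2548 to 3147 CPM at 12 weeks. Most of that sum is Trf (2958 and 2525 CPM), and Mbp, myelin basic protein, was at 80.0 to 98.7 CPM against 32.5 to 77.6 CPM. Border-associated macrophage markers summed to 263 to 330 CPM and 229 to 285 CPM over 14 genes, with 1 lower. The neutrophil list had 2 of 12 genes measured and consisted almost wholly of Csf3r, the receptor for G-CSF, at 505 to 569 CPM against 249 to 420 CPM (-0.62 ± 0.13). Monocyte markers summed to 10.96 to 24.4 CPM and 4.43 to 18.5 CPM, and markers of T and NK cells to 3.56 to 7.83 CPM and 4.65 to 11.7 CPM, with 11 of 17 at 0 in every WT library. Neuronal markers summed to 2653 to 3763 CPM and 3109 to 4298 CPM, with 1 of 19 higher and 1 lower, and astrocyte markers, most of whose sum is Cst3, to 25140 to 29570 CPM and 28590 to 31080 CPM, with 2 of 15 each way. Lists for B cells, erythroid cells and choroid plexus had no member at an unadjusted p under 0.05, and 1 of 7 endothelial and mural genes was lower. The part of other cells in the age differences was not tested.

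The KO libraries give a second comparison of the same ages in other animals. Both age effects came from the same model with a shared sex term, so their estimates are not fully independent. Agreement of the genotypes also cannot tell age apart from a difference in handling between the ages, which both genotypes could share. Among the 1271 WT genes at an unadjusted p under 0.05, 933 (73.4%) had the same sign in KO, against 58.5% of all genes tested, and 299 (23.5%) also had an unadjusted p under 0.05 in the same direction, against 24 in the opposite one. Of the 20 named genes, 19 had the same sign in KO, 14 of them at an unadjusted p under 0.05, and Mcm9 was the exception (log2 change 1.96 in WT and -0.16 in KO). In KO, 1504 genes (8.8%) had an unadjusted p under 0.05, with 614 higher (3.59%) and 890 lower (5.21%), and in 1122 (6.57%) the ages did not overlap. At the threshold there were 4 genes (0.0234%), 1 higher and 3 lower (0.0176%): mt-Co1 was higher (log2 change 0.76, adjusted p = 0.0459, edgeR), and Cx3cr1 (-0.57), the purine receptor P2ry13 (-0.55) and the sialomucin Cd164 (-0.62) were lower. The WT values of these genes were 0.57, -0.42, -0.17 and -0.02. The mitochondrially encoded, oxidative phosphorylation and ribosomal lists had medians of 0.65, 0.30 and 0.29 in KO. The homeostatic list had 13 of 30 members lower and 1 higher in KO at an unadjusted p under 0.05.

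Other lists had different values in the 2 genotypes, and no member other than Axl passed the test of the difference in the model of all 16 libraries. At an unadjusted p under 0.05 that test gave 810 genes (4.74%), with 373 values above 0 (2.18%) and 437 below (2.56%). Interferon-stimulated genes had a median of 0.85 in KO and -0.00 in WT, with 13 members higher in KO at an unadjusted p under 0.05, and disease-associated genes had 0.39 and 0.00. Apoe had a log2 change of 0.74 in KO and -0.45 in WT (adjusted p of the difference 0.474), Tap1 0.90 and -0.88 (0.542), Irf7 1.00 and -1.60 (0.853), and Smad3 -1.20 and 0.25 (0.334).

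**Figure D5:**
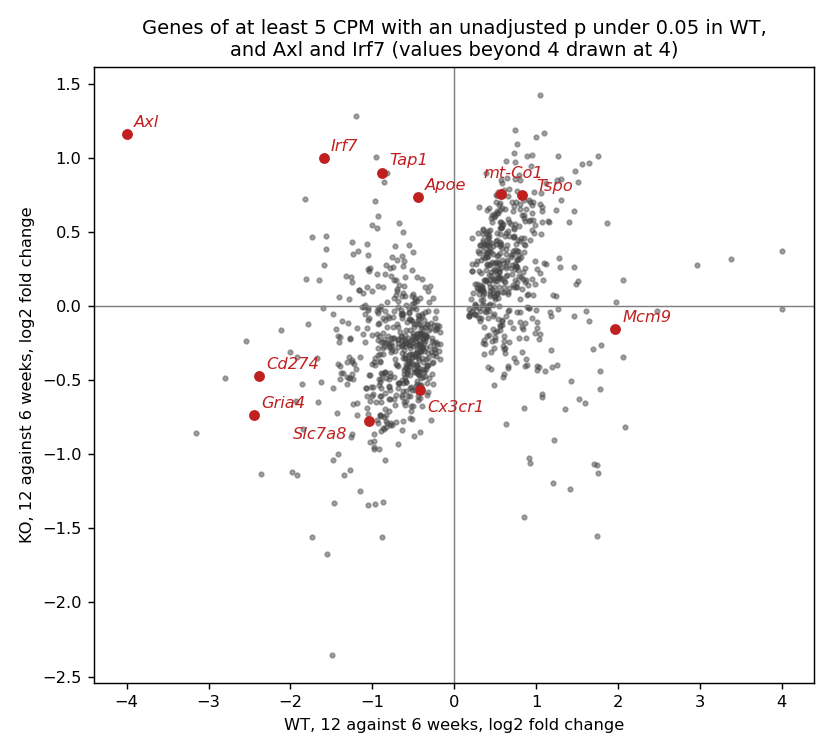
Log2 change of 12 against 6 weeks in WT (horizontal) and KO (vertical) for genes of at least 5 CPM in WT with an unadjusted p under 0.05 in WT, and for Axl and Irf7; values beyond 4 are drawn at 4. Of these 1007 genes, 792 (78.6%) have the same sign in both genotypes (lower left and upper right), against 60.8% of all 11133 tested genes at that level. Axl, Irf7, Tap1 and Apoe lie in the upper left.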

How the data were processed

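RNA was measured in sorted microglia by bulk sequencing (NEBNext low-input kit and NovaSeq6000, per the labels' protocols). The authors deposited unnormalised gene counts, as whole numbers, for every library, and the submitters' processing notes name cutadapt 2.10, TopHat, HTSeq 0.11.0 and the build GRCm39; annotation release and strand setting are not stated in these sources, so antisense and duplicated genes are uncertain. A deposited table for the whole series was not used here. In R 4.3.3, edgeR 4.0.16 kept 17090 of 53700 genes (filterByExpr by group, minimum count 10), scaled by TMM and fitted all 16 libraries with terms for 4 groups and sex (common dispersion 0.421), so that KO libraries share in the estimate of spread. Tests are two-sided. A standard error is the absolute log2 change over the square root of F. Floors of 3 counts cover counting error only. Limma 3.58.1 and DESeq2 1.42.0 gave alternatives.

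Named genes: those past the threshold, at 5 CPM or more over the 8 WT libraries and without overlap between ages (up to 15 each way), each direction filled to 10 by unadjusted p; list members past the threshold and, in the lists described gene by gene, the 3 most abundant; Ercc1, Irf7, Irf9 and Smad3; and genes past the threshold for the difference between genotypes. Other list members were named after their values were seen, by unadjusted p. A gene that this rule names is not reported here. The comparison and its 29 gene lists and 13 marker lists (1 of them sex-linked genes) were chosen with earlier results of these data known. Replicate numbers were not taken to pair the ages.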

Additional observations from a re-analysis of the deposited data

Results flagged for a closer look

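Single libraries stood apart within their group of 4 by the gap to the nearest other library relative to the group's range (Dixon's test), in 6 of 94 groups tested, where chance alone gives about 1 in 20. In 6-week WT, replicate 1 had a summed erythroid marker level of 52.28 CPM (15.5 CPM or less in the others) and the highest Cox6b1 (73.84 CPM), and replicate 4 had the highest Cx3cr1 (12960 CPM) and the highest Ercc1 (30.58 CPM). In 12-week WT, replicate 5_6 was the deepest library (22140000 counts, rounded) and replicate 4 had the lowest Cox6b1 (87.17 CPM). In Cox6b1 and Cx3cr1 the library that stood apart lay toward the other age in the first and away from it in the second, and the ages did not overlap in either. The age effect on Axl differed between KO and WT by 10.98 on the log2 scale (adjusted p = 0.000567, edgeR), a fitted value that depends on the prior count because all 12-week WT libraries were at 0.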

How the results depend on the processing

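Precision was limited by 4 libraries a group and by the spread at 12 weeks, where voom gave replicates 3, 5_6 and 8 weights of 0.646, 0.447 and 0.552. The main model called 2 genes in WT, 4 in KO and 1 for the difference between genotypes. RLE scaling and a filter of 1 CPM in 4 libraries gave 2 in WT. Without a filter on low counts the numbers were 194, 204 and 132, and with DESeq2 150, 249 and 53. The unfiltered WT calls included the sex-linked Xist (log2 change 6.60) and Tsix (5.43). Those of DESeq2 in WT included fitted log2 changes as large as -21.9 (Itih3) and 21.8 (Depp1). The cause was not tested. Dropping the sex term gave 16 in KO, and entering 5_6 as mixed sex, chosen after seeing the data, gave 8 in KO; both left 2 in WT. With WT libraries only, 0 genes passed in WT (1136 at an unadjusted p under 0.05, edgeR), and with the male libraries without 5_6 the numbers were 0, 0 and 0 (833 at an unadjusted p under 0.05 in WT). Axl had an adjusted p of 0.311 and 0.0890 in these fits and Slc7a8 one of 0.0649 and 0.201. Without 12-week replicates 3 and 8, 3 genes passed in WT (Axl, Slc7a8 and, higher, Xist), 10 in KO and 2 for the difference (Axl and Gpx3). The 12-week WT libraries left in that fit, replicates 4 and 5_6, are both labelled male and held Xist at 11.4 and 349.6 CPM. Voom called 1 gene in WT, Slc7a8, 10 in KO (Axl: adjusted p = 0.375 in WT) and 1 for the difference (Cd164, adjusted p = 0.0345). Leaving out each WT library in turn gave 1 to 4 calls in WT, 1 to 7 in KO and 1 to 2 for the difference; the 4 came without 12-week replicate 4, and the 1, Axl, without 6-week replicate 4. Same-numbered libraries of 6 and 12 weeks did not deviate together (r = 0.0285 for number 3 and 0.00297 for number 4), and with the replicate block 0 genes passed in WT (1194 at an unadjusted p under 0.05), 0 in KO and 1 for the difference (Vapa, adjusted p = 0.0400, edgeR); Axl and Slc7a8 each had an adjusted p of 0.107 in WT, and the difference for Axl one of 0.147.

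The 20 named genes kept their direction in all 380 values under 19 alternatives. They were chosen for WT libraries that did not overlap between ages in these same counts, so a change of sign was hardly possible. Of 130 genes, 23 changed the sign of the log2 change in 68 of 2470 values. Without 12-week replicates 3 and 8 it was -0.022 for B2m, -0.024 for Ctsz, -0.53 for Ercc1, 0.028 for H2-DMa, 0.0028 for Lgmn, 0.40 for Mcm3, 0.019 for Mef2c, 0.13 for Rrm1, -0.077 for Sall1, 0.084 for Tgfbr2, 0.34 for Tyms. In the male libraries without 5_6 it was 0.057 for C1qa, 0.049 for C1qb, 0.0049 for Sgk1, 0.090 for Tgfbr2, 0.019 for Tyms, -0.0042 for Uqcrc1, -0.19 for Usp18. With the replicate block it was 0.15 for C1qc, 0.028 for Canx, -0.83 for Ercc1, 0.053 for H2-DMa, 0.11 for Hk2, 0.047 for Rpl4, 0.42 for Tyms, -0.11 for Uqcrc1. With WT libraries only it was -0.23 for Ercc1, 0.018 for Tyms. With no filter on low counts it was -0.017 for Ctsz, -0.00041 for Ercc1, -0.0066 for Uqcrc1. With no sex term it was 0.030 for Tyms, -0.024 for Uqcrc1. With limma voom and quality weights it was -0.0011 for Ctsz, -0.42 for Ercc1, 0.045 for Mcm3, 0.13 for Tyms. With 5_6 as mixed sex it was 0.0057 for Tyms. Over the libraries left out in turn it ranged, among genes that took both signs, as follows: Canx -0.17 to 0.0082, Ctss -0.012 to 0.11, Ctsz -0.033 to 0.036, Ercc1 -0.79 to 0.40, H2-DMa -0.099 to 0.052, Hk2 -0.22 to 0.093, Igtp -0.11 to 0.16, Mcm3 -0.25 to 0.15, Mef2a -0.078 to 0.14, Rrm1 -0.25 to 0.046, Sall1 -0.00017 to 0.17, Tgfbr2 -0.36 to 0.16, Tyms -0.23 to 0.24, Uqcrc1 -0.086 to 0.086.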

Other observations

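The oxidant and antioxidant genes, described only here, included 3 higher and 2 lower of 24 at an unadjusted p under 0.05. Cyba, the membrane subunit of the phagocyte oxidase, was at 651, 808, 806 and 692 CPM at 6 weeks and at 978, 902, 844 and 950 CPM at 12 weeks, without overlap (log2 change 0.32 ± 0.10, adjusted p = 0.398, edgeR), and the glutathione peroxidase Gpx1 had a value of 0.32 ± 0.12. In KO the values were 0.41 for both genes. Cholesterol synthesis genes had a median of -0.01, with 1 of 24 lower.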
